A study of Mus musculus with 12 samples.

Results

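The comparison described here sets 3 tumors treated with the TGF-beta-neutralizing antibody 1D11 against 3 tumors treated with the antibody 13C4, none of them irradiated, across all measured genes. These are 6 of the 12 tumors in the series, taken by their labels as 1D11 replicates 1 to 3 and control replicates 1 to 3. 13C4 is the isotype control of 1D11, so every tumor received an antibody. Each tumor grew from cells of the mouse Lewis lung carcinoma line LLC injected beneath the skin at the right flank. The hosts were C57BL/6 females, 6 to 8 weeks old. Treatment was assigned at random once a tumor measured 60 to 80 mm3, and tissue was collected on day 19. The other 6 tumors received 13C4 with radiation (radiation group, 3 tumors) or 1D11 with radiation (1D11_radiation group, 3 tumors). Sample characteristics give that radiation as 5 fractions of 6 Gy, while the sample descriptions give 2 Gy. No source used here states the antibody dose or schedule. The model is 1 carcinoma line in 1 inbred host with its own immune system, and 1 tumor gave 1 array. The source names call the material tumors and the descriptions call it cells; it is taken here as whole tumor.

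TGF-beta is secreted in a latent complex, held by latent binding proteins and surface anchors and released largely by integrins. The active ligand joins the receptors Tgfbr2 and Tgfbr1, which phosphorylate Smad2 and Smad3, and these enter the nucleus with Smad4 to switch genes on. Among the genes switched on are brakes on the same pathway, such as Smad7, Skil and Pmepa1. In tumors TGF-beta is known for driving matrix production by fibroblasts and for restraining lymphocytes, macrophages and dendritic cells. An antibody acts on the secreted protein, so the mRNA of the ligands is no check of the treatment.

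Values are log2 intensities of an Affymetrix array, 1 probe set per gene, and a difference of 1 is a doubling. Of 18193 genes with a probe set, 12735 passed the limit on dim genes and were tested. Across genes the 12 arrays correlated at r from 0.990 to 0.997. Carcinoma and mesenchymal genes of the line were bright in all 6 tumors: Vim stood at 14.35 to 14.39, Cd44 at 12.58 to 12.93 and Krt18 at 11.67 to 12.39. The pan-leukocyte gene Ptprc stood at 10.24 to 10.74, and the lung epithelial genes Nkx2-1 and Sftpc lay below the limit. Tissue around the tumor varied between single tumors. The skeletal muscle score (the mean over list members of log2 intensity after centring every gene) was 1.15 in control replicate 1 against -1.11 to 0.19 in the other 5. The keratinocyte score was 2.07 in 1D11 replicate 3 against -0.33 to 0.57 in the other 5, and the red blood cell score was 2.97 in 1D11 replicate 1. Nothing in the labels says whether tumors of a group shared a batch, and no array date was used. The labels do not say that each tumor came from its own mouse, so p-values measure the spread between these samples.

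The clearest difference between 1D11 and control tumors was in Cadm1 and Ccl6, which both rose. Cadm1 encodes a cell adhesion molecule of epithelial cells, mast cells and dendritic cells that binds the lymphocyte receptor Crtam. Its log2 intensity was 8.62, 8.5 and 8.58 in control replicates 1 to 3 and 9.13, 9.12 and 9.12 in 1D11 replicates 1 to 3. The groups did not overlap, and the 1D11 tumors lay within a few hundredths of each other. The rise in Cadm1 was 1.47-fold, a log2 change of 0.56 with a standard error of 0.06 over 3 tumors in each group, written 0.56 ± 0.06 from here on (limma adjusted p = 0.0366). Ccl6 encodes a chemokine of the myeloid lineage, made by macrophages and neutrophils. It stood at 11.56, 11.56 and 11.66 in the control tumors and at 12.39, 12.46 and 12.55 in the 1D11 tumors. All 1D11 tumors were above all control tumors, and Ccl6 rose by 0.87 ± 0.11 (limma adjusted p = 0.0474), or 1.83-fold. The second probe set of Ccl6 differed by 1.12. Of the 4 probe sets of Cadm1, 3 differed by 0.56 to 0.72, and the other, at 6.72 to 7.16 in all 6 tumors, by -0.01.

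These 2 genes are all that passed in 12735 tests (0.0157%, adjusted p under 0.05), with none lower. At an unadjusted p under 0.05, limma gave 1148 genes higher (9.01% of those tested) and 652 lower (5.12%). The groups did not overlap for 1540 genes on the higher side (12.1%) and 885 on the lower side (6.95%). The median difference over all genes was 0.04, and 7913 of 12735 genes were higher. Quantile normalization, which makes the arrays' distributions equal and so centres the differences by construction, gave a median of -0.0003. There 6352 genes were higher, and 4.48% were higher and 6.11% lower at an unadjusted p under 0.05. Both calls depended on single tumors and settings. Cadm1 and Ccl6 lost the call without control replicate 3 (adjusted p = 0.0623 and 0.0852) or without any one of the 1D11 tumors (0.0773 to 0.285), with differences of 0.55 to 0.56 and 0.83 to 0.91. Because so few genes passed, the groups below are given by counts of members and by values, and a gene described as higher or lower without a call is a difference that did not pass. Those counts are to be read beside the 9.01% higher and 5.12% lower, or 12.1% and 6.95% apart, of all genes.

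**Figure D1:**
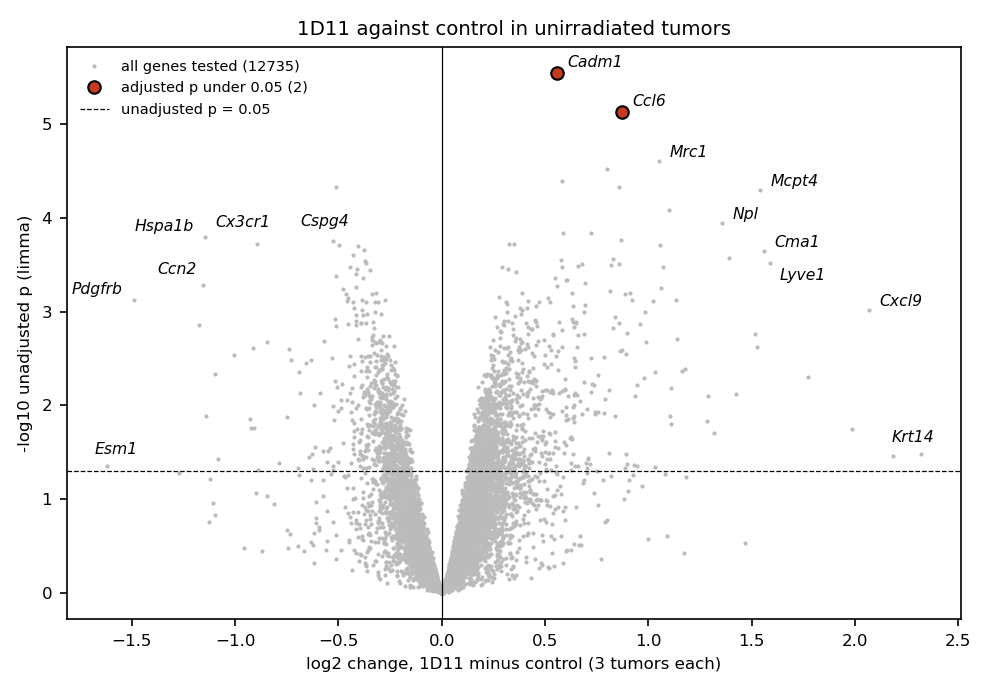
Each point is 1 of 12735 genes: the horizontal axis is the log2 change, 1D11 minus control, and the vertical axis is -log10 of the unadjusted limma p. Cadm1 and Ccl6, in red, are the 2 genes with an adjusted p under 0.05; the genes with the largest differences, such as Krt14 at 2.32, Cxcl9 at 2.07 and Esm1 at -1.62, lie lower on the vertical axis because their tumors spread more.

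The genes next in order of p on the higher side did not pass. Mrc1, the mannose receptor of tissue macrophages, stood at 11.05, 10.89 and 11.08 in control and at 11.86, 12.05 and 12.26 in 1D11 tumors. The lowest 1D11 tumor exceeded the highest control tumor by more than the range of the controls, at a difference of 1.05 ± 0.15 (limma adjusted p = 0.0811). Fcgr1, the high-affinity IgG receptor of monocytes and macrophages, stood at 8.55, 8.71 and 8.29 against 9.21, 9.63 and 9.27 (0.86 ± 0.13). Mcpt4, a chymase of connective-tissue mast cells, stood at 7.23, 6.51 and 6.5 against 8.19, 8.12 and 8.54 (1.54 ± 0.24). The interferon-induced growth regulator Slfn1 (0.80 ± 0.12) and the zinc-finger gene Zfp458 (0.58 ± 0.09) shared the adjusted p of 0.0811. Slfn1 was dim, at 4.87, 5.15 and 4.91 in control and 5.88, 5.71 and 5.73 in 1D11 tumors. Its control values lay under the 5.37 limit on dim genes, so the size of its difference is uncertain. In each of these 5 genes the groups were apart. The other 5 of the 12 genes with the smallest p on the higher side had an adjusted p of 0.111. They were Rgs18, a regulator of G protein signalling in platelets and myeloid cells (1.10), Npl, a sialic acid lyase (1.36), Lrba, a vesicle-trafficking protein (0.59), the platelet and macrophage chemokine Pf4 (0.72) and the interferon-induced GTPase Gbp6 (0.87).

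**Figure D2:**
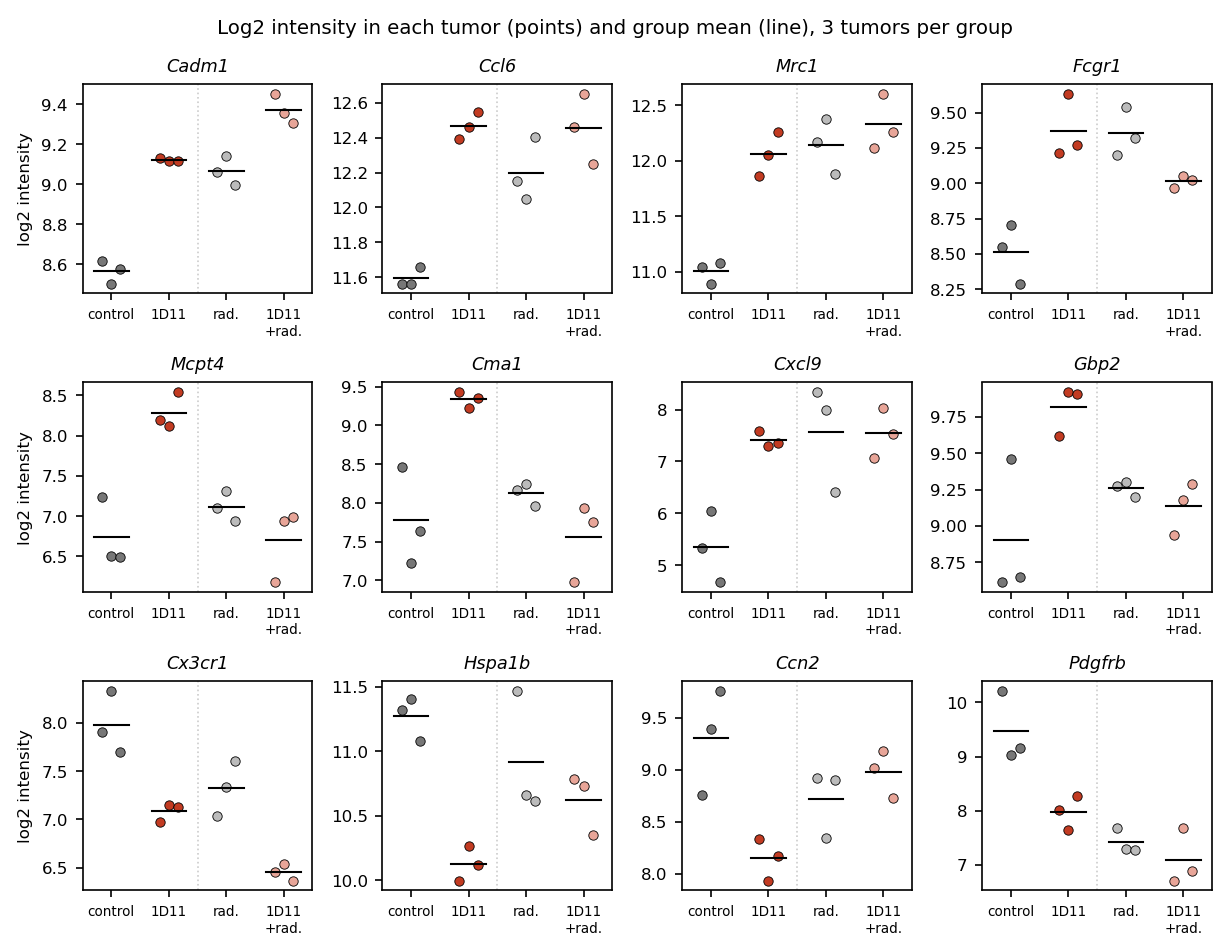
Log2 intensity (vertical axes) of 12 named genes in each tumor, with a point per tumor and a line at the mean of each group of 3; unirradiated groups stand left of the dotted line and irradiated groups right of it. In all 12 panels the 3 1D11 tumors lie entirely above (Cadm1 to Gbp2) or entirely below (Cx3cr1 to Pdgfrb) the 3 control tumors.

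No gene passed on the lower side, and the 12 with the smallest p there had adjusted p values of 0.0811 for 1700003D09Rik and 0.111 for the rest. Hspa1b, an inducible heat shock protein of the HSP70 family, stood at 11.32, 11.41 and 11.08 in control and 10.00, 10.26 and 10.11 in 1D11 tumors (-1.14 ± 0.21). Its near-identical copy Hspa1a stood at 8.52, 9.08 and 8.72 against 7.36, 8.04 and 7.40 (-1.18 ± 0.28, limma adjusted p = 0.141). Both differed in the same tumors, and signal of the copies cannot be separated with certainty. Cx3cr1, the fractalkine receptor of patrolling monocytes and tissue macrophages, stood at 7.90, 8.34 and 7.70 against 6.97, 7.15 and 7.13 (-0.89 ± 0.16). Cspg4, the NG2 proteoglycan of pericytes, stood at 7.36, 7.12 and 7.06 against 6.67, 6.6 and 6.71 (-0.52 ± 0.10). The groups were apart in each of these genes. The remaining 9 differed by -0.51 to -0.36: 1700003D09Rik, the secreted antiangiogenic protein gene Ism1, the B cell transcription factor gene Bach2, Gpr179, Lypd1, Asphd2, Nckap5los, Diras2 and Tmem132a. Most were dim. In 1D11 tumors 1700003D09Rik, Ism1 and Lypd1 averaged 5.19, 5.23 and 5.29, under the 5.37 limit on dim genes. Nckap5los and Bach2 averaged 5.47 and 5.58, and Tmem132a was the brightest at 7.03. The 3 probe sets of Bach2 ran from -0.40 to 0.40, so its direction rests on the choice of probe set. Probe sets also differed for Slfn1 (0.04 to 0.80), Lrba (-0.16 to 0.59), Zfp458 (0.12 to 0.58), Fcgr1 (0.44 to 0.86), Ism1 (-0.50 to -0.03), Cx3cr1 (-0.89 to -0.33), Lypd1 (-0.43 to -0.15), Asphd2 (-0.37 to -0.24) and Diras2 (-0.45 to -0.18).

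The TGF-beta pathway itself showed small differences, with no member of its lists called. Of the ligands, Tgfb1 stood at 6.86, 7.19 and 6.97 in control and 7.23, 7.02 and 7.25 in 1D11 tumors (0.16 ± 0.11, limma adjusted p = 0.546). Tgfb2 stood at 6.97, 5.91 and 6.14 against 5.99, 5.82 and 6.10 (-0.37 ± 0.22), and control replicate 1 alone was high. Tgfb3 stood at 9.24, 8.97 and 8.62 against 8.51, 8.84 and 8.87 (-0.20 ± 0.19). The groups overlapped for each ligand. Of the signalling receptors, Tgfbr1 stood at 10.12, 10.13 and 9.76 against 9.65, 9.56 and 9.81 (-0.34 ± 0.12, adjusted p = 0.271) and Tgfbr2 at 11.37, 11.50 and 11.34 against 11.53, 11.44 and 11.59 (0.12 ± 0.10). The 3 probe sets of Tgfbr1 ran from -0.34 to 0.18, and the 2 of Tgfb1 from -0.20 to 0.16. The ligand-presenting coreceptor Tgfbr3 differed by 0.27 ± 0.11. Of the genes that hold or release the latent ligand, Nrros, a surface anchor of latent TGF-beta on microglia and macrophages, stood at 8.52, 8.45 and 8.25 against 8.69, 9.10 and 9.11 (0.56 ± 0.12, adjusted p = 0.127). It was the only one of the 16 tested members whose groups were apart. Of all genes, 12.1% were apart on the higher side and 6.95% on the lower side. Itgb8, a chain of the integrin that activates latent TGF-beta, differed by 0.54 ± 0.22, with overlap. Over the 16 members 10 were higher, with a median of 0.10 against 0.04 for all genes, and 3 were higher and 1 lower at an unadjusted p under 0.05.

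Of 15 tested SMADs and feedback inhibitors 7 were higher and 8 lower, at a median of -0.03, and none was called. Smad7, which blocks the receptor, stood at 8.98, 9.22 and 9.0 in control and 8.89, 8.69 and 8.84 in 1D11 tumors, with the groups apart (-0.26 ± 0.10, limma adjusted p = 0.271). Bambi, a decoy receptor, stood at 6.10, 6.31 and 6.32 against 6.01, 6.04 and 6.00, also apart (-0.23 ± 0.09). Pmepa1, which sequesters receptor-bound SMADs, stood at 8.88, 8.61 and 7.99 against 8.01, 7.88 and 7.87 (-0.57 ± 0.28, adjusted p = 0.380), and control replicate 3 lay among the 1D11 tumors. Skil, a SMAD corepressor, stood at 10.75, 10.77 and 10.29 against 10.41, 10.33 and 10.27 (-0.26 ± 0.14), with the same control tumor low. These 4, named for their small p, were also the lowest of the 15. Smad2, Smad3 and Smad4 differed by 0.09, 0.02 and -0.03. On the plot of lists, the 15 members spread from -0.57 to 0.15.

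Target genes of TGF-beta were lower in 15 of 26 tested cases, at a median of -0.06, with 5 lower and 1 higher at an unadjusted p under 0.05 and none called. Ccn2, the connective tissue growth factor gene and a classical SMAD target, stood at 8.76, 9.39 and 9.76 in control and 8.34, 7.93 and 8.18 in 1D11 tumors. The groups were apart (-1.16 ± 0.24, limma adjusted p = 0.127), or 0.449-fold. Bhlhe40, a transcriptional repressor, stood at 10.40, 10.75 and 10.23 against 10.09, 9.87 and 9.90 (-0.51 ± 0.15). Pdgfb, the growth factor that recruits pericytes, differed by -0.32 ± 0.13 and the actin-binding gene Tpm1 by 0.22 ± 0.09, both with the groups apart. Other textbook targets, chosen after their values were seen, overlapped: Tagln differed by -0.61 (0.046 without control replicate 1), Lox by -0.45, Timp1 by 0.16, Tgfbi by 0.04, Fn1 by -0.04 and Acta2 by -0.05. The target median lay between -0.16 and -0.07 with any single tumor left out. None of the 15 target genes with a RefSeq promoter entry held the SMAD palindrome GTCTAGAC in the 250 bases before its start, which 0.2% of all 27025 genes with such an entry held. At that share no match was to be expected among 15 genes, so its absence does not tell whether SMADs bind them.

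**Figure D3:**
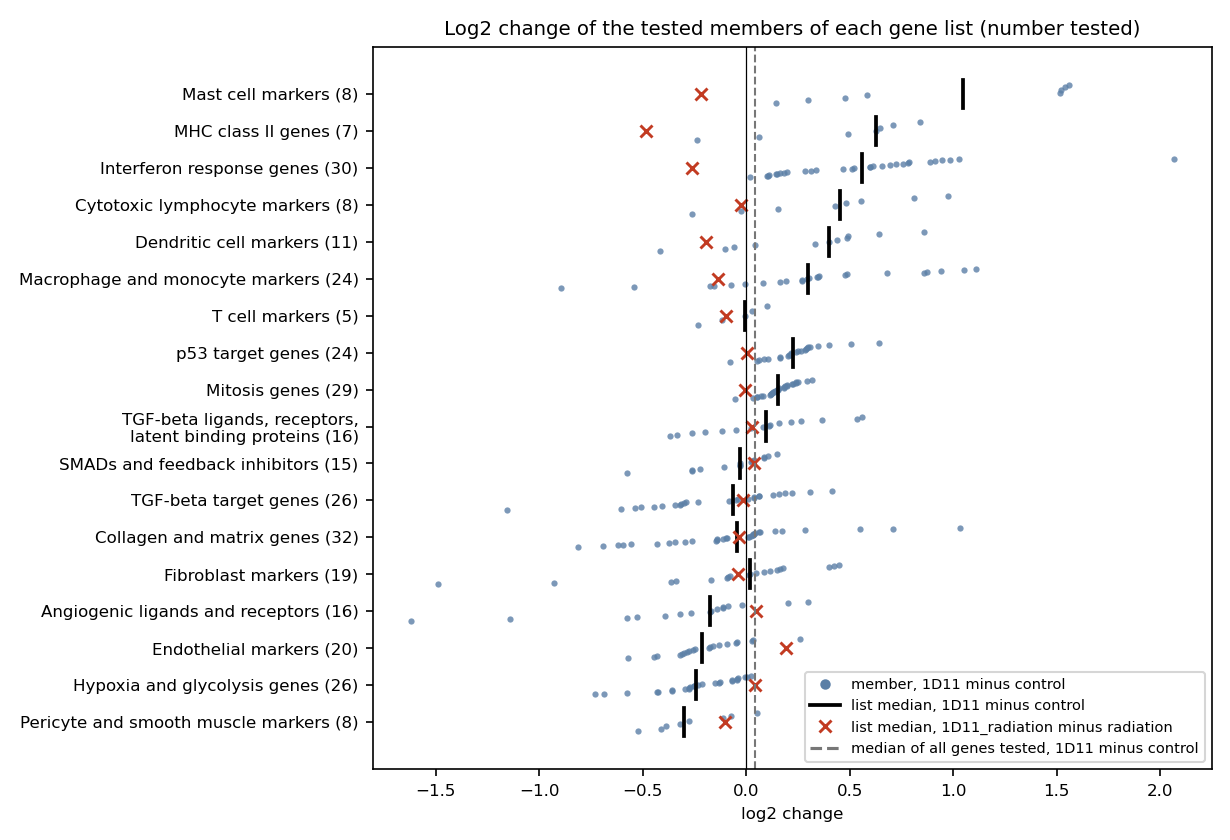
Log2 change of every tested member (blue points, 1D11 minus control) of 18 gene lists, with the list median (black bar), the median of the same list in irradiated tumors (red cross, 1D11_radiation minus radiation) and the median of all genes (dashed line). Mast cell, MHC class II and interferon response genes lie farthest to the right, at medians of 1.05, 0.63 and 0.56, and pericyte, hypoxia and endothelial genes farthest to the left, at -0.30, -0.24 and -0.21.

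Interferon response genes were higher in 30 of 30 tested cases. Interferons signal through STAT and IRF factors that bind the element ISRE in promoters of antiviral genes, GTPases and chemokines. At an unadjusted p under 0.05, 19 of the 30 were higher and none lower, against 9.01% of all genes higher. The groups were apart for 11, against 12.1% of all genes on that side, and no member was called. The median was 0.56, and it ran from 0.41 to 0.75 with any single tumor left out. The promoters of 4 members and of Ccl6 are shown because the members hold the ISRE letters, which are GAAA, any 2 bases and GAAA again, searched on both strands, and Ccl6, which rose, does not. Each run is 250 bases, ends at the base before the gene's start, comes from RefSeq (GRCm38.p6) and reads 5′ to 3′ on the gene's strand, with matches in capitals. The 4 were the members with the smallest p among those with a match, and for Trim30a the first of 2 starts is shown.

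Gbp2, chr3:142620413-142620662, + strand: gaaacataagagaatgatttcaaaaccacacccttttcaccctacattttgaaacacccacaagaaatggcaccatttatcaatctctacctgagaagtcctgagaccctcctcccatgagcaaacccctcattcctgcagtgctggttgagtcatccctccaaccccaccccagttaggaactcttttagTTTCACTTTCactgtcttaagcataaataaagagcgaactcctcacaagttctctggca
Trim30a, chr7:104465194-104465443, - strand: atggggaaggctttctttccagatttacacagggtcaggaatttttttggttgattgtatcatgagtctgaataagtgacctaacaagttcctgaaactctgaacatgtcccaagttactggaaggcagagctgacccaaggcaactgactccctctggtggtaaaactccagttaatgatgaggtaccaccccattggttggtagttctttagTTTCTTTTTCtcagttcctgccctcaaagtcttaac
Ifit1, chr19:34640639-34640888, + strand: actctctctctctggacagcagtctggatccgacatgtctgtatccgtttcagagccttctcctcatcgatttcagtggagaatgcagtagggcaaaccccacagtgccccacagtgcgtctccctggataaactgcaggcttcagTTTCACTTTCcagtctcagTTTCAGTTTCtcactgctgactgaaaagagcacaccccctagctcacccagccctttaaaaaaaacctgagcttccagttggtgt
Cxcl10, chr5:92348890-92349139, - strand: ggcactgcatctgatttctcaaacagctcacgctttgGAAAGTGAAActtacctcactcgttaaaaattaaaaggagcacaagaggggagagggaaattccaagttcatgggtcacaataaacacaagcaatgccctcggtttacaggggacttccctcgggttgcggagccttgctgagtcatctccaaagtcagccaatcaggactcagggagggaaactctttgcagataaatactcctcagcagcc
Ccl6, chr11:83593088-83593337, - strand: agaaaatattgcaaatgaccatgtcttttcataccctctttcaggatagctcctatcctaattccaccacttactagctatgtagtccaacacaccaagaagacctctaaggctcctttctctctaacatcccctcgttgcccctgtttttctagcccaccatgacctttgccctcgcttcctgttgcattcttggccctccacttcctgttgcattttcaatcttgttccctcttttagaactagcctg

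Of the 30 interferon genes, 21 had a promoter entry and 10 of these held the ISRE letters (47.6%). Of the 10247 tested genes with an entry 3.07% held them, and of all 27025 genes with an entry 3.46%. The list is of known interferon targets, so this share describes the list and not the tumors. A match is a description of letters, not a site shown to be bound.

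Cxcl9, a chemokine that draws T cells through Cxcr3, showed the largest difference of the list. It stood at 5.33, 6.04 and 4.67 in control and 7.59, 7.30 and 7.35 in 1D11 tumors (2.07 ± 0.47, limma adjusted p = 0.136), or 4.19-fold. Control replicates 1 and 3 and the control mean of 5.34 lay under the 5.37 limit on dim genes. The size of the Cxcl9 difference is therefore uncertain. The control tumors spread widely and the 1D11 tumors lay close together, though the second probe set of the gene differed by only 0.41. Gbp2, an interferon-induced GTPase, stood at 8.61, 9.46 and 8.65 against 9.62, 9.92 and 9.91 (0.91 ± 0.19). Iigp1, another such GTPase, stood at 7.61, 8.71 and 7.76 against 8.81, 9.18 and 9.05 (0.99 ± 0.25). Dhx58, a cytosolic RNA sensor of the RIG-I family, stood at 6.30, 6.52 and 5.93 against 7.0, 7.02 and 6.81 (0.69 ± 0.14), and its 3 probe sets ran from -0.02 to 0.69. In these 4 genes the groups were apart, and control replicate 2 was the highest control tumor in each. Ifit1, an antiviral RNA-binding protein gene, differed by 1.03, the chemokine gene Cxcl10 by 0.95 and Trim30a by 0.51. At the other end of the list, in examples chosen after their values were seen, Mx2 differed by 0.02 and the master regulator Irf1 by 0.10. The score of the list was -0.26, 0.11 and -0.53 in control replicates 1 to 3 and 0.21, 0.51 and 0.26 in 1D11 replicates 1 to 3.

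Antigen presentation genes lay on the same side. Of 7 tested MHC class II genes 6 were higher, at a median of 0.63. At an unadjusted p under 0.05, 5 were higher, against 9.01% of all genes. The groups were apart on the higher side for 4, against 12.1% of all genes. H2-Aa, a class II chain, stood at 10.02, 9.85 and 9.40 in control and 10.13, 10.67 and 10.99 in 1D11 tumors (0.84 ± 0.28, limma adjusted p = 0.230). Its invariant chain gene Cd74 stood at 8.22, 8.01 and 7.75 against 8.25, 8.67 and 8.96 (0.63 ± 0.27). In both genes 1D11 replicate 1 lay only just above control replicate 1. H2-DMa, which loads peptides, and H2-Eb1 differed by 0.49 ± 0.18 and 0.71 ± 0.30. Of 13 class I presentation genes 12 were higher, at a median of 0.13. The class I transactivator Nlrc5 (0.67), the immunoproteasome genes Psmb10 (0.27) and Psmb9 (0.38) and the peptide transporter Tap1 (0.34) had the smallest p. Without control replicate 3 the class I median was 0.06.

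Of 24 macrophage and monocyte genes 18 were higher, at a median of 0.30, with 8 higher and 2 lower at an unadjusted p under 0.05. The differences were uneven among members, and those named beyond the 4 with the smallest p were chosen after their values were seen. Beside Mrc1 and Fcgr1, the integrin Itgam stood at 8.15, 8.34 and 8.21 in control and 8.74, 8.83 and 9.17 in 1D11 tumors (0.68 ± 0.13, limma adjusted p = 0.111). Cd163, a hemoglobin scavenger receptor of tissue macrophages, differed by 1.11 and Fcgr4 by 0.87, with the groups apart. Genes carried by most macrophages differed less and overlapped: Csf1r by 0.16, Cd68 by 0.27, Adgre1 (F4/80) by 0.35 and Lyz2 by -0.01. Cx3cr1, at -0.89, and Gpnmb, at -0.54, were lower with the groups apart. In bulk tumors fewer cells of a type and less RNA per cell cannot be told apart.

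Dendritic cell genes were higher in 8 of 11 tested cases, at a median of 0.40, with 4 higher and 1 lower at an unadjusted p under 0.05. Cd83, a marker of dendritic cell maturation, stood at 6.56, 6.61 and 6.65 in control and 7.35, 7.48 and 7.57 in 1D11 tumors (0.86 ± 0.17, limma adjusted p = 0.111). The gap between the groups was several times the range within either. Flt3, the receptor of dendritic cell growth, differed by 0.64 and the costimulatory ligand Cd80 by 0.49. Siglech, a plasmacytoid dendritic cell receptor, was lower, at 6.22, 6.01 and 6.13 against 5.68, 5.88 and 5.55 (-0.42 ± 0.10). The list median was 0.14 when the lowest 50% of gene means was left out.

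Genes of cytotoxic lymphocytes were higher in 6 of 8 tested cases, at a median of 0.45, with 2 at an unadjusted p under 0.05. Klrd1, the CD94 chain of natural killer receptors, stood at 6.69, 6.17 and 5.57 in control and 6.63, 7.38 and 7.36 in 1D11 tumors (0.98 ± 0.28, limma adjusted p = 0.199). Ccl5, a chemokine of activated T and natural killer cells, stood at 7.38, 6.58 and 6.52 against 7.28, 7.90 and 7.72 (0.81 ± 0.24). For both genes 1D11 replicate 1 lay below control replicate 1, so the groups overlapped. The granzyme genes Gzma and Gzmb differed by 0.56 and 0.43 with the groups apart, and the perforin gene Prf1 by -0.02. Only 8 of 17 listed genes passed the limit on dim genes, the median was 0.07 when the dim members were kept, and it was 0.29 without control replicate 3 or without 1D11 replicate 2. Of 15 T cell genes only 5 were tested, at a median of -0.0073: Cd4 differed by -0.23, Zap70 by -0.12 and Cd3d by 0.10. The interferon gamma gene Ifng and the regulatory T cell gene Foxp3 lay below the limit.

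Mast cell genes had the largest median of the lists with at least 5 tested members, 1.05 over 8, all higher. At an unadjusted p under 0.05, 6 were higher, against 9.01% of all genes. The same number had the groups apart, against 12.1% of all genes on the higher side. Cma1, the mast cell chymase, stood at 8.47, 7.22 and 7.64 in control and 9.43, 9.23 and 9.36 in 1D11 tumors (1.56 ± 0.29, limma adjusted p = 0.111). Fcer1a, the alpha chain of the IgE receptor, stood at 6.63, 5.23 and 5.73 against 7.56, 7.31 and 7.26 (1.51 ± 0.37). Cpa3, the mast cell carboxypeptidase, differed by 1.52 with the groups apart. Control replicate 1 was the highest control tumor for Mcpt4, Cma1 and Fcer1a, and the 1D11 tumors were close together. Gata2, a transcription factor of mast cells and endothelium, differed by 0.30, and Kit, the stem cell factor receptor, by 0.15 with overlap. The list score was 0.03, -0.48 and -0.30 in control and 0.86, 0.59 and 0.67 in 1D11 tumors. Mast cells are common in skin and connective tissue. Markers of skin and fat also varied between tumors, and their part in the mast cell values was not tested beyond a covariate. Keratinocyte markers were higher in 7 of 7 tested cases (median 0.88, or 0.32 without 1D11 replicate 3), and the fat hormone gene Adipoq stood at 5.69, 4.87 and 6.19 against 8.24, 6.31 and 7.53. Over the 7 adipocyte markers the median was 0.10 and 2 lay lower, and 1 was higher at an unadjusted p under 0.05. Krt14 stood at 5.30, 5.47 and 5.47 in control and 7.35, 5.21 and 10.63 in 1D11 tumors. With the keratinocyte score as a covariate the mast cell median was 0.99 and the interferon median 0.59. Among the unirradiated tumors that score was 2.07 in 1D11 replicate 3 and -0.33 to 0.57 in the others. It holds no marker of connective tissue. With the 12 listed mast cell genes kept whatever their brightness the median was 0.56.

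**Figure D4:**
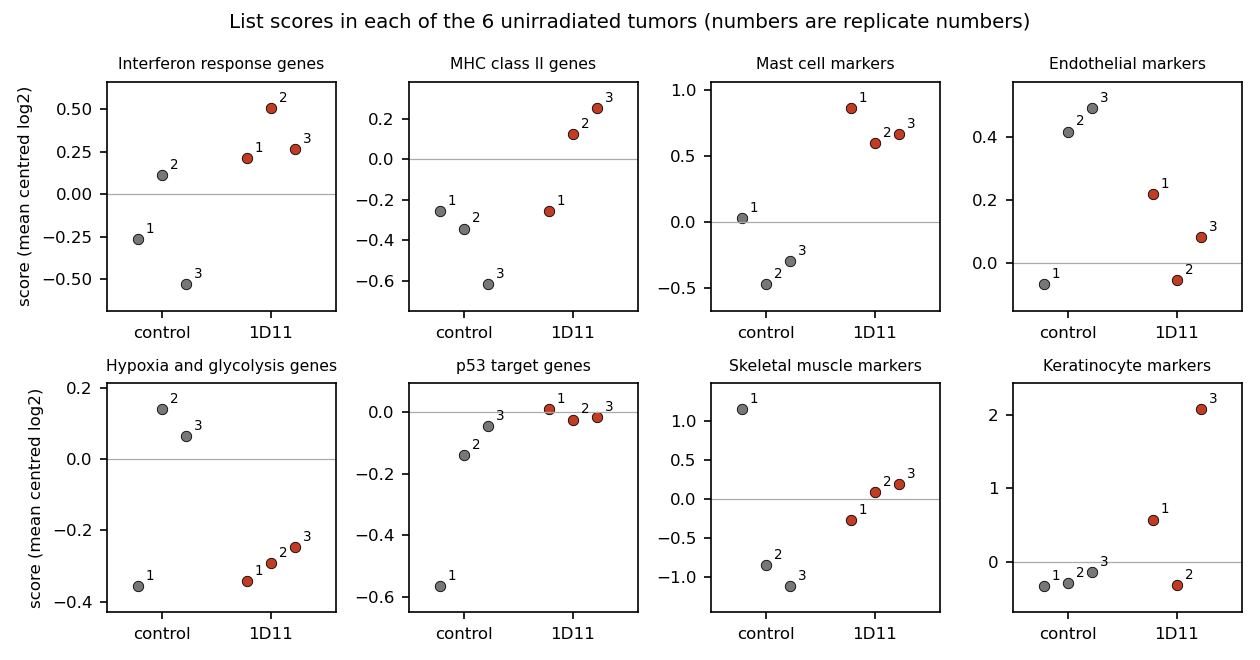
List scores (vertical axes, mean over members of gene-centred log2 intensity) in the 6 unirradiated tumors, a point per tumor numbered by replicate. Interferon, MHC class II and mast cell scores are higher in all 3 1D11 tumors than in all 3 controls, though for MHC class II 1D11 replicate 1 and control replicate 1 nearly coincide; control replicate 1 stands apart from the other controls in the skeletal muscle, p53, hypoxia and endothelial panels, and 1D11 replicate 3 in the keratinocyte panel.

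Genes of the vessel wall were on the lower side. Of 20 endothelial genes 17 were lower in 1D11 tumors, at a median of -0.21, with 6 lower at an unadjusted p under 0.05 and none called. Flt4, the lymphatic VEGF receptor, stood at 5.77, 6.09 and 6.11 in control and 5.44, 5.59 and 5.62 in 1D11 tumors (-0.45 ± 0.12, limma adjusted p = 0.175), and its other probe set differed by 0.04. Egfl7, secreted by endothelium, stood at 8.82, 9.18 and 9.14 against 8.79, 8.74 and 8.75 (-0.28 ± 0.09). Ecscr and the endothelial nitric oxide synthase gene Nos3 differed by -0.31 and -0.25. Pan-endothelial genes overlapped, with Pecam1 at -0.18 and Cdh5 at -0.28. Control replicate 1 had an endothelial score of -0.07 against 0.42 and 0.49 in the other control tumors. The median was -0.37 without it, -0.10 without control replicate 2 and -0.06 without control replicate 3.

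Among 8 genes of pericytes and smooth muscle, 7 lay lower, at a median of -0.30. Mcam, an adhesion molecule of pericytes, stood at 8.12, 8.4 and 8.66 in control and 8.08, 7.81 and 8.06 in 1D11 tumors (-0.41 ± 0.15, limma adjusted p = 0.263). Rgs5, a regulator of G protein signalling in pericytes, stood at 9.37, 9.46 and 9.37 against 9.20, 8.97 and 9.07 (-0.32 ± 0.20). With Cspg4 and Cald1 the groups were apart in 4 of the 8, against 6.95% of all genes on the lower side. Pdgfrb, the receptor through which pericytes and fibroblasts answer Pdgfb, showed the largest difference among the fibroblast markers. It stood at 10.22, 9.03 and 9.15 against 8.01, 7.65 and 8.27 (-1.49 ± 0.32, adjusted p = 0.127), or 0.356-fold, with both probe sets lower. Cthrc1, a gene of matrix-producing fibroblasts, stood at 9.40, 8.59 and 9.15 against 8.15, 8.21 and 7.99 (-0.93 ± 0.32), also apart. Over the 19 tested fibroblast markers the median was 0.02, and 11 were higher. Osr1, a mesenchymal transcription factor, differed by 0.40 and Meox1 by -0.34. Collagen and matrix genes were divided, 16 higher and 16 lower, at a median of -0.04. Postn, the periostin gene, differed by 1.03 and Col12a1 by 0.71, while Fmod differed by -0.43 and Col15a1 by -0.29.

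Angiogenic ligands and receptors were lower in 14 of 16 tested cases, at a median of -0.17, with 6 lower at an unadjusted p under 0.05. Vegfa stood at 8.27, 9.22 and 9.11 in control and 8.41, 8.14 and 8.32 in 1D11 tumors (-0.57 ± 0.23, limma adjusted p = 0.312). Pgf, the placental growth factor gene, stood at 7.44, 9.02 and 8.90 against 7.69, 7.11 and 7.14 (-1.14 ± 0.39). In both, control replicate 1 lay among the 1D11 tumors and the other 2 control tumors lay well above them. Hypoxia and glycolysis genes, many of them targets of the factor HIF-1, had a similar shape in their list score, though not in every member. Of 26 tested, 24 were lower, at a median of -0.24, with 7 lower at an unadjusted p under 0.05, against 5.12% of all genes. P4ha2, a collagen prolyl hydroxylase, stood at 8.94, 8.98 and 8.67 against 7.86, 8.08 and 8.44 (-0.73 ± 0.20, adjusted p = 0.177). For this gene control replicate 1 lay above all 1D11 tumors. Egln3, a HIF prolyl hydroxylase, differed by -0.43 ± 0.15 with overlap. The glycolytic enzymes Ldha and Pgk1 differed by 0.0016 and -0.07. The hypoxia score was -0.36 in control replicate 1 against 0.14 and 0.06 in the other controls and -0.34 to -0.25 in the 1D11 tumors, and the median was -0.13 without control replicate 2.

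Of 24 tested p53 targets 23 lay higher, at a median of 0.23, with 7 higher at an unadjusted p under 0.05. Eda2r, a death-domain receptor gene, stood at 7.12, 7.88 and 8.2 in control and 8.28, 8.44 and 8.4 in 1D11 tumors (0.64 ± 0.21, limma adjusted p = 0.219). The nuclease gene Aen, Ei24 and Tigar differed by 0.24, 0.31 and 0.22, with the groups apart in each. Control replicate 1 was the lowest tumor for Eda2r, Aen and Ei24, and its p53 score was -0.56 against -0.14 to 0.01 in the other 5 tumors. Without it the list median was 0.08, so most of the shift came with that tumor. Mitosis genes were higher in 28 of 29 tested cases, at a median of 0.15. Ccnb2, a mitotic cyclin, stood at 10.75, 10.65 and 10.51 against 10.97, 10.92 and 10.99 (0.32 ± 0.07, adjusted p = 0.141). Leaving out control replicate 1 gave a median of 0.29 and leaving out control replicate 3 gave 0.045, while DNA replication genes, 12 of 26 higher, had a median of -0.0039.

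Medians of the other lists lay close to that of all genes, or rested on few members or single tumors. Neutrophil genes had a median of 0.14 over 9 (-0.27 without 1D11 replicate 1), inflammatory cytokines and chemokines 0.04 over 24, immune checkpoint genes 0.14 over 8, and B and plasma cell genes -0.06 over 4. Among the cytokines, the monocyte chemokine Ccl12 differed by 0.69 with the groups apart. Matrix proteases and inhibitors had -0.02 over 24, Id genes and BMP signalling 0.03 over 17, and epithelial-mesenchymal transition genes 0.02 over 14. Oxidative phosphorylation genes had 0.06 over 21, unfolded protein and stress response genes -0.05 over 17, and NRF2 targets 0.12 over 11. Skeletal muscle markers had 0.22 over 22 (1.02 without control replicate 1), adipocyte markers 0.10 over 7, and nerve and Schwann cell markers 0.16 over 6. Red blood cell genes had 1.13 over 2, RNA quality and stress genes 0.03 over 14 and ribosomal protein genes 0.01 over 12. The carcinoma list had 0.03 over 6. It also holds the pan-leukocyte gene Ptprc, so its median is no measure of carcinoma cells alone.

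Control replicate 1 had the highest skeletal muscle score of the 6 unirradiated tumors, and the lowest array weight of the 12, 0.297. Leaving it out raised the count from 2 to 21 genes, 12 higher and 9 lower (limma adjusted p under 0.05). Cadm1 and Ccl6 were among them. Among those added on the higher side were mast cell genes, with Cpa3 at 2.01, Cma1 at 1.91 and Mcpt4 at 1.78, and the scavenger and hyaluronan receptor genes Lyve1 (1.89) and Stab1 (0.80). The rest of that side were Rgs18 (1.28), Plac1 (0.81), Rbm47 (0.78), Zfp458 (0.63) and Ppargc1b (0.47). Plac1 had the smallest adjusted p of the 21 (limma, 0.0071). Among those on the lower side were Ccn2 (-1.43), the growth factor binding gene Igfbp3 (-1.95) and genes of vessel endothelium: Esm1 (-2.70), Gpihbp1 (-1.10), Angpt2 (-0.87) and Adgrf5 (-0.85). The rest there were Ero1a (-0.69), Frzb (-0.62) and Ism1 (-0.61). Lyve1, Stab1, Igfbp3, Gpihbp1, Adgrf5, Esm1 and Angpt2 were chosen after their values were seen. The part of the muscle signal in this was not tested beyond a covariate: with the muscle score in the fit 10 genes passed, 9 higher and 1 lower. Leaving out control replicate 2 also gave 21 genes, 17 higher and 4 lower, and leaving out control replicate 3 gave 1. Without 1D11 replicates 1, 2 and 3 the counts were 0, 2 and 0, and the 2 without replicate 2 did not include Cadm1 or Ccl6. With the keratinocyte score as a covariate no gene passed (1096 at an unadjusted p under 0.05).

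The same antibody comparison in irradiated tumors, 1D11_radiation against radiation, shares no tumor with the one above. In it no gene passed (limma, 0 of 12735; 688 genes, 5.4%, at an unadjusted p under 0.05, of which 2.74% of all genes were higher and 2.66% lower). Over all genes the 2 sets of log2 changes correlated at r = 0.025 (rho = 0.157), as a description across genes, which are not independent. Of the 1800 genes at an unadjusted p under 0.05 without radiation, 1087 (60.4%) had the same sign with it, against 56.9% of all genes. Cx3cr1 was lower by a like amount in both: it stood at 7.04, 7.34 and 7.60 in the radiation group and 6.46, 6.54 and 6.36 in the 1D11_radiation group, a difference of -0.87 beside -0.89 without radiation. In irradiated tumors the groups were apart for 7.3% of all genes on the higher side and 6.12% on the lower side. Cadm1 stood at 9.06, 9.14 and 9.0 against 9.45, 9.35 and 9.31, a difference of 0.31 beside 0.56. Ccl6 differed by 0.25 beside 0.87, with overlap, and Mrc1 by 0.19 beside 1.05. Pmepa1 differed by -0.87 beside -0.57, with overlap in both, and Itgb8 and Tgfbr3 by 0.51 and 0.28 beside 0.54 and 0.27. Nrros, apart on the higher side without radiation, was apart on the lower side with it, at -0.27 beside 0.56. Tgfbr1 also had the opposite sign, at 0.08 beside -0.34. Ccn2 differed by 0.25 beside -1.16, and Smad7 by -0.11 beside -0.26. All 12 genes named on the lower side were also lower in irradiated tumors, and 8 of the 12 on the higher side were higher. Most of these differences were small. Beside Cx3cr1, the lower side ran from -0.29 (Hspa1b) to -0.02 (Ism1), with the groups apart only for Cx3cr1 and Diras2. The 8 higher genes ran from 0.05 (Slfn1) to 0.31 (Cadm1), apart only for Cadm1 and Lrba. The others ran from -0.42 (Mcpt4) to -0.16 (Rgs18).

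Most immune lists had the opposite sign in irradiated tumors, and a smaller number kept theirs. With radiation, 29 of 30 interferon response genes lay lower, at a median of -0.26 beside 0.56 without radiation. MHC class II genes were lower in 7 of 7, at -0.49 beside 0.63, and dendritic cell genes in 10 of 11, at -0.19 beside 0.40. Macrophage and monocyte genes were lower in 18 of 24, at -0.14 beside 0.30, and MHC class I genes in 12 of 13, at -0.11 beside 0.13. Checkpoint genes had -0.13 beside 0.14 and cytotoxic lymphocyte genes -0.03 beside 0.45. Neutrophil genes kept their sign, at 0.41 beside 0.14, though the unirradiated median turned without 1D11 replicate 1. Inflammatory cytokines and chemokines (0.18 beside 0.04), T cell genes (-0.10 beside -0.0073) and B and plasma cell genes (-0.01 beside -0.06) kept theirs. The signs of these lists rest in part on medians near 0. Mast cell genes had a median of -0.22 beside 1.05, and endothelial genes 0.19 beside -0.21. Skeletal muscle markers were lower in 22 of 22 cases in 1D11_radiation tumors (median -1.45), and their part in these values was not tested. Whether the effect of 1D11 differs with radiation was tested gene by gene as an interaction in the same limma fit, and no gene passed (0 of 12735; 952 genes, 7.48%, at an unadjusted p under 0.05, with 2.38% of all genes on the higher and 5.1% on the lower side). The interaction contains the unirradiated difference, so genes already far apart there tend to lead it. Stat4, a transcription factor of interleukin-12 signalling, stood at 5.71, 5.64 and 5.58 in control and 5.93, 6.08 and 6.09 in 1D11 tumors, then at 6.25, 6.51 and 6.44 in radiation and 5.98, 6.13 and 5.99 in 1D11_radiation tumors. The 1D11 tumors were above their controls in the first pair and below in the second, an interaction of -0.75 ± 0.12 (adjusted p = 0.265). Fcgr1, Cd83, Mcpt4 and Slco3a1 followed on that side, at -1.20, -1.45, -1.96 and -0.53. On the other side stood the Wnt antagonist gene Frzb (1.21), the hepatocyte growth factor gene Hgf (0.48), Rnf144a (0.76), Rhd (0.44) and Plcxd1 (0.67).

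**Figure D5:**
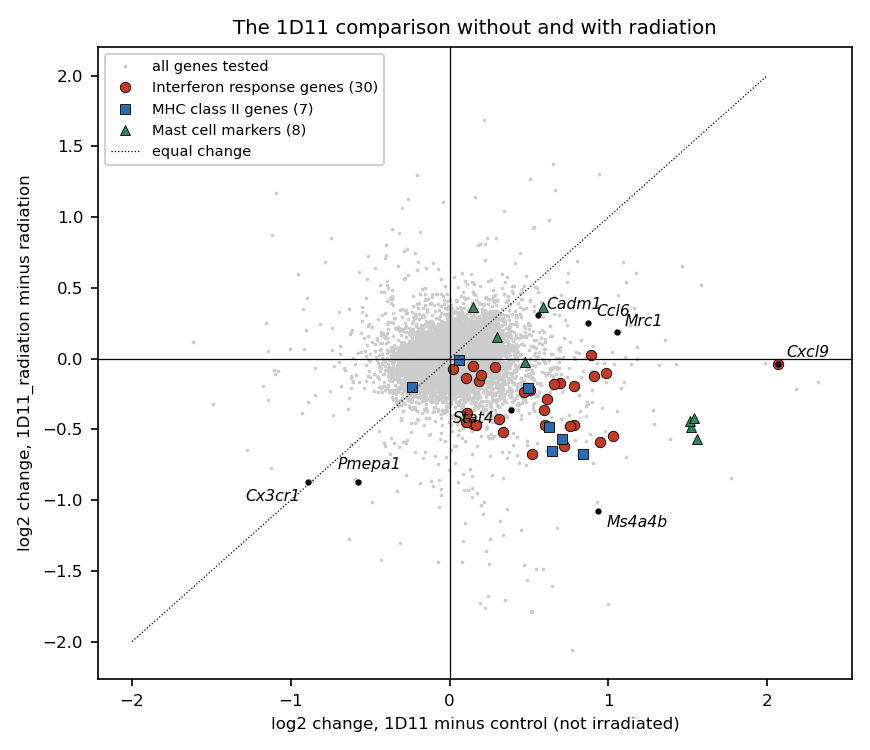
Log2 change of each gene without radiation (horizontal axis, 1D11 minus control) against the change with radiation (vertical axis, 1D11_radiation minus radiation), 3 tumors per group, with interferon, MHC class II and mast cell genes marked. Most marked genes lie right of 0 and below 0, Cx3cr1 lies near the dotted line of equal change, and Ms4a4b, a lymphocyte membrane protein gene labelled after its values were seen, lies at 0.93 and -1.07.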

How the data were processed

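RNA of 12 tumors was measured on 1 Affymetrix array each (45101 probe sets). The deposited values were linear intensities that the authors had already normalized between arrays (array medians 62.3 to 66.1); the software is not given in the sources used here. Their log2 was taken here, which the authors did not deposit. Left out were 932 probe sets of several symbols, 9160 of no symbol and 64 controls. Each gene was read from its brightest probe set on average, and the lowest 30% of gene means (under 5.37) were not tested. Limma 3.58.1 in R 4.3.3 fitted 1 mean per group to all 12 arrays, with Benjamini-Hochberg adjustment over 12735 genes and a threshold of 0.05. The 38 gene lists and the members described were chosen with earlier results of these data known. The text names, by smallest p, 12 genes on each side and at most 4 of a list, fixed TGF-beta pathway genes, and 5 interaction genes per direction. All other genes the text names were chosen after their values were seen. The script was tested on simulated data. Alternatives changed the samples, probe set rule, filter, normalization, weights, trend, block and tissue covariates, or left out 1 tumor. Promoters were RefSeq's (GRCm38.p6). The number of arrays limits the precision.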

Additional observations from a re-analysis of the deposited data

Results flagged for a closer look

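The interferon response score separated the groups in opposite directions with and without radiation. The mean score of 1D11 tumors minus that of control tumors was 0.55, with all 3 1D11 tumors above all 3 controls. The mean score of 1D11_radiation tumors minus that of radiation tumors was -0.3, with all 3 1D11_radiation tumors below all 3 radiation tumors. The difference between these 2 score differences was not tested, and no single gene passed the interaction test.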

How the results depend on the processing

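With 3 tumors a group, the count of called genes moved with most choices, and for these the cause was not tested. Against 2 called genes, 0 were called with only the 6 unirradiated tumors (1494 at an unadjusted p under 0.05), with the mean of probe sets (1690), with quantile normalization (1349) and with the keratinocyte score as covariate (1096). The count was 4 with no filter on dim genes, 13 with array weights, 10 with the muscle score as covariate, and 0 to 21 with 1 tumor left out. Array weights gave 6 genes for the irradiated comparison and 122 for the interaction, against 0 in each; leaving out 1 tumor gave 0 to 1 and 0 to 21. The fit with only the 6 unirradiated tumors gives no value for the irradiated comparison or the interaction. Deviations from the group means correlated at -0.195, -0.037 and -0.229 between same-numbered control and 1D11 tumors. Between differently numbered ones they ran from -0.181 to 0.373. With 3 tumors a group these values are tied to each other and cannot decide whether replicate numbers mark pairs. The replicate block left 0 called genes (1648 at an unadjusted p under 0.05).

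List medians that moved by more than the spread of that list's own score between tumors were these. A list with a wide spread can shift further without appearing here, as the cytotoxic, endothelial and p53 lists did in the values given above. Absence from this paragraph is no sign of a stable median. The mean of probe sets gave 0.0124 for TGF-beta ligands and receptors, -0.195 for pericyte, -0.105 for T cell, 0.287 for dendritic cell and -0.0071 for ribosomal genes. Array weights gave 0.0192 for TGF-beta ligands and receptors and -0.390 for pericyte genes. Leaving out the lowest 50% of gene means gave -0.218 for pericyte, -0.116 for T cell, -0.221 for B and plasma cell and 0.138 for dendritic cell genes. No filter gave 0.0248 for SMADs and feedback inhibitors, 0.558 for mast cell and 0.0216 for checkpoint genes. The keratinocyte covariate gave 0.304 for dendritic cell and -0.123 for keratinocyte genes themselves. With 1 tumor left out, medians ran from 0.0132 to 0.131 for TGF-beta ligands and receptors, -0.0335 to 0.0143 for SMADs and feedback inhibitors, -0.157 to -0.0692 for TGF-beta targets and -0.129 to 0.071 for Id and BMP genes. They ran from -0.029 to 0.0789 for fibroblast, -0.387 to -0.224 for pericyte, 0.210 to 0.387 for macrophage and 0.265 to 0.432 for dendritic cell genes. They ran from -0.102 to -0.0169 for unfolded protein response, 0.0479 to 0.188 for NRF2 and -0.122 to 0.0495 for stress genes. For ribosomal genes they ran from 0.0024 to 0.0276, and for the carcinoma list with Ptprc from 0.0154 to 0.109.

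Genes that turned direction were all uncalled and mostly near 0. With array weights Acta2 was 0.220, Kit -0.033, Ldha -0.0255, Lyz2 0.0844 and Prf1 0.14. With the mean of probe sets Bach2 was 0.0909, Smad3 -0.0148, Smad4 0.0484, Tgfb1 -0.0193 and Tgfbi -0.0412. Quantile normalization gave 0.0143 for Lyz2 and -0.0148 for Smad3, and the muscle covariate -0.0012 for Mx2 and -0.0268 for Tgfbi. The keratinocyte covariate gave -0.0164 for Ldha and 0.0276 for Prf1. With 1 tumor left out, Acta2 ran from -0.290 to 0.327, Fn1 from -0.0976 to 0.0396, Kit from -0.0597 to 0.350, Ldha from -0.0343 to 0.0235, Lyz2 from -0.110 to 0.111, Mx2 from -0.0291 to 0.0548 and Prf1 from -0.187 to 0.148. Smad3 ran from -0.0151 to 0.0638, Smad4 from -0.0666 to 0.0143, Tagln from -0.961 to 0.0457 and Tgfbi from -0.159 to 0.288.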
